A study of Mus musculus with 23 samples.

Results

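Short H3K9me3 peaks at the boundaries of protein-coding genes were examined in CD4+ naive T cells of the mouse. A peak belonged to the set when it was under 2000 bp wide, lay on chromosomes 1 to 19 or X, and had its midpoint within 3000 bp of either boundary of a protein-coding gene. Of 16161 H3K9me3 peaks on these chromosomes, 572 (3.54%) met the rule, and they lay at 527 of 21631 protein-coding genes (2.44%). The genes were then divided by whether a peak of RNA polymerase II (PolII) also lay within 3000 bp of a boundary, which gave 72 genes with PolII and 455 genes without it. Gene boundaries are the outermost RefSeq coordinates of a gene. Where the strand was known, the upstream boundary is called the gene start and the downstream one the 3′ end. A gene start in this sense can lie away from the annotated promoters of the gene.

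The profiles came from CUT&Tag, in which an antibody directs a transposase to cut and tag nearby DNA, on cells that the labels place in spleen and pLN, of DDX55 KO and WT mice. DDX55 is a DEAD-box RNA helicase. H3K9me3, PolII and DDX55 were each profiled in 2 DDX55 KO and 2 WT samples, all untreated. DNA-RNA hybrids (R-loops, antibody S9.6) were profiled in 2 DDX55 KO and 2 WT samples with 20 U of RNase H, an enzyme that digests the RNA of such hybrids, and in 2 DDX55 KO and 2 WT samples without it. An HA tag (2 WT samples) and IgG (1 WT sample) completed the 23 samples. The promoter or Cre behind the knockout, the age of the mice and whether each sample was a different mouse are not given in the sources used here. Each target had 1 merged peak list, which holds positions only, with no height and no value per sample, so the depth is unknown. DDX55 KO and WT samples named the same list, and the R-loop list merges RNase H-treated with untreated samples, so that an R-loop peak may come from either. No difference between genotypes, effect of RNase H or spread between samples could be measured. All intervals in brackets are exact Clopper-Pearson 95% intervals, which cover counting error only, because neighbouring peaks and genes are not independent. PolII peaks, read as a check on the labelled cell type, lay at 9 of 11 T cell marker genes, among them Cd3e, Cd4 and Lck, and at 1 of 10 B cell, 2 of 12 myeloid, 1 of 10 CD8 T and NK cell and 2 of 10 erythroid marker genes.

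As background, H3K9me3 is the histone mark of constitutive heterochromatin. It is laid down by methyltransferases such as SETDB1 and SUV39H1 and is bound by HP1 proteins. KRAB zinc finger proteins recruit SETDB1 through TRIM28 to transposable elements, and the clusters of zinc finger genes themselves are known to carry the mark, often over their 3′ exons. PolII peaks mark places where the transcribing enzyme sits, most often near gene starts.

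At genes without PolII, the promoters that lay under a short H3K9me3 peak held fewer CpGs than promoters under PolII. Sequences were RefSeq windows of 300 bases (GRCm38.p6), from 250 bases before to 50 bases after an annotated start, and a window counted as covered when a peak held at least 150 of its bases. Covered windows numbered 3 at genes with PolII and 36, at 34 genes, at genes without PolII. The 6 sequences below are examples and leave out clone-named genes. They are written 5′ to 3′ on the strand of the gene, with each CpG dinucleotide in capitals, and were picked after their values were seen. They do not span the range, since covered windows of genes without PolII reached 42 CpGs, at Gm40847, more than in any shown for such genes.
Tmem267: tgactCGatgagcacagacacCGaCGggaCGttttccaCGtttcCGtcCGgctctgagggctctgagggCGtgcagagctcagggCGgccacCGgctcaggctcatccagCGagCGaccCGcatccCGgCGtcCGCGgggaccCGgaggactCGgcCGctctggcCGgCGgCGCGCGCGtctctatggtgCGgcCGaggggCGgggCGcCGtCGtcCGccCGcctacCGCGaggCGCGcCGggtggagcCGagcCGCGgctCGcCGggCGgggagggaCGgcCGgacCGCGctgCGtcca
Pfdn2: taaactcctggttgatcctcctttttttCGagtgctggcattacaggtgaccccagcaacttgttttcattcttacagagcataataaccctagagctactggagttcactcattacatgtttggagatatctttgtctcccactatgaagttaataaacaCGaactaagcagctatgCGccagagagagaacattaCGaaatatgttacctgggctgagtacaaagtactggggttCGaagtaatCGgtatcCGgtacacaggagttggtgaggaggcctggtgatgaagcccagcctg
Vmn2r29: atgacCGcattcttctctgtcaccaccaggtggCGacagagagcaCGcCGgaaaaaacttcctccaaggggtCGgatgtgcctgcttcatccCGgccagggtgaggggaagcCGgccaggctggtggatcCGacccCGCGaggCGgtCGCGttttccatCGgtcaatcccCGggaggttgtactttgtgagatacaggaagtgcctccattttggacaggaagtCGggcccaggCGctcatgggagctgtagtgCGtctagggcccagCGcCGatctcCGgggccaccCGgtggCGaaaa
Rpl10l: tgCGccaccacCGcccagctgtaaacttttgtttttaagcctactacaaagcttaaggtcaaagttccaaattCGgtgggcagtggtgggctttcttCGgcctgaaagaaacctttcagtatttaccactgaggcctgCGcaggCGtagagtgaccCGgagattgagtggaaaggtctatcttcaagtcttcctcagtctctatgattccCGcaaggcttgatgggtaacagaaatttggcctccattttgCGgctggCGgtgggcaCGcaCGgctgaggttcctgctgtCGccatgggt
Nlrp5: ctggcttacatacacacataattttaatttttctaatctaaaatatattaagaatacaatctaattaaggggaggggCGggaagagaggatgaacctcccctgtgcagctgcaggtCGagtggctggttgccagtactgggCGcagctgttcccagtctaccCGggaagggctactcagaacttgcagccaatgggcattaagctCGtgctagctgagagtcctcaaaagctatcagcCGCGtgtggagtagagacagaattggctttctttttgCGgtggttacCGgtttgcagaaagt
Spin2f: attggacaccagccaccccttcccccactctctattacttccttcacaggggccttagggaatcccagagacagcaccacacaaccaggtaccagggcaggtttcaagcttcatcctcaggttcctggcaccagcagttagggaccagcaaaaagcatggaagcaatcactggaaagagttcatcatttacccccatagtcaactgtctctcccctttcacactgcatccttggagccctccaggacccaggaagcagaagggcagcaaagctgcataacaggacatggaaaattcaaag

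The first pair belongs to genes with a PolII peak. The window of Tmem267, which encodes a transmembrane protein (chr13:119488223-119488522, plus strand), held 50 CpGs, and 201 of its bases were under the H3K9me3 peak and 166 under a PolII peak. The window of Pfdn2, which encodes a prefoldin chaperone subunit (chr1:171344704-171345003, plus strand), held 7 CpGs. The H3K9me3 peak covered 288 of its bases and PolII none, since the PolII peak counted for Pfdn2 lay 1657 bp from its other boundary and was nearest to Klhdc9.

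The other 4 belong to genes without PolII. Vmn2r29 encodes a vomeronasal receptor (chr7:7278240-7278539, minus strand) and had 23 CpGs, all 300 bases being under the peak. Rpl10l encodes a testis-expressed copy of a ribosomal protein (chr12:66284352-66284651, minus strand) and had 13 CpGs. Nlrp5 encodes an oocyte protein (chr7:23385639-23385938, plus strand) and had 9. Spin2f encodes a spindlin of a multicopy X-linked family (chrX:31254386-31254685, plus strand) and had none.

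Across the 36 covered windows of genes without PolII the median was 6 CpGs (quartiles 1.75 and 18.2) and the median GC content was 49.5%. The 3 covered windows of genes with PolII had 50, 37 and 7 CpGs. The 4110 windows that overlapped a PolII peak anywhere had a median of 24 CpGs and 62.7% GC, and all 21045 windows had 13 CpGs and 56.7% GC. At least 10 CpGs were present in 13 of the 36 windows (36.1%), against 94.4% of windows under PolII and 57.3% of all windows. The covered windows of genes without PolII were therefore poorer in CpG at the median than those under PolII, although they reached up to 74.0% GC. Uncovered windows of genes without PolII were not set apart, so the part of H3K9me3 in this difference was not tested. Of the 3 at genes with PolII, the windows with 50 and 37 CpGs were themselves partly or wholly under a PolII peak. Searched on both strands, the E-box CACGTG occurred in 1 of the 3 and 0 of the 36 covered windows, against 10.7% of windows under PolII and 7.91% of all windows. The E2F-type motif GCGGGAA occurred in 0 of the 3 and in 2 of the 36 (5.56%), those of Nlrp5 and Rpl10l, against 10.3% under PolII and 6.02% of all. A match is only a description of letters. With so few covered windows these shares carry wide counting error.

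The members were narrow, like the list they come from. Their widths ran between 183 and 1983 bp with quartiles of 426, 634 and 1101 bp, and together they covered 458 kb. Their midpoints lay 5 to 2994 bp from the nearest boundary, with quartiles of 658, 1367 and 2106 bp. Each successive 1000 bp from the boundary held 216, 195 and 161 peaks, so the peaks did not pile up at the boundary itself. The midpoint was inside the nearest gene for 302 peaks (52.8%). A single gene was in reach of 552 peaks, 2 genes of 15 and 3 genes of 5, which gave 597 pairs of a peak and a gene.

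The widest members included those of the olfactory receptor gene Olfr1213 (1983 bp), the zinc finger gene Zfp763 (1937 bp), Sfi1 (1935 bp), which encodes a centrosome protein, and the pheromone receptor gene Vmn2r65 (1916 bp). Nearest to a boundary were the peaks of Krtap6-3, a keratin-associated protein gene (5 bp), Mageb17-ps (21 bp), Pramel41 of the oocyte-expressed Pramel family (25 bp) and Dsc1, a desmosomal cadherin gene (33 bp). The width limit fell between peaks of 1963, 1974 and 1983 bp just inside it and peaks of 2014, 2038 and 2053 bp just outside it. The distance limit fell between 2970, 2977 and 2994 bp on the inside and 3002, 3011 and 3013 bp on the outside. These outer peaks lay at genes of the same families (Zfp874b, Vmn2r115, Vmn1r88, Vmn2r114, Vmn1r151), which also had members inside the limits, and at Gm38538.

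Genes with a short H3K9me3 peak seldom had a PolII peak. PolII lay at 72 of the 527 genes (13.7%, 10.8 to 16.9%), against 7196 of all 21631 protein-coding genes (33.3%). Seen from the other side, a short H3K9me3 peak lay at 72 of 7196 genes with PolII (1.00%, 0.784 to 1.26%) and at 455 of 14435 genes without it (3.15%, 2.87 to 3.45%). R-loop and DDX55 peaks were few but relatively more frequent at the H3K9me3 genes. An R-loop peak lay at 11 of the 527 genes (2.09%, 1.05 to 3.70%), against 0.569% of all protein-coding genes, and a DDX55 peak at 15 (2.85%, 1.60 to 4.65%), against 0.254%.

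In the 72 genes with both marks, the H3K9me3 peak was mostly at the 3′ end and the PolII peak at the start. The strand was known for 61 of these genes, which had 65 pairs of an H3K9me3 peak and a gene, and for 362 of the genes without PolII, which had 418. The H3K9me3 peak was nearest the 3′ end in 53 of 65 pairs (81.5%, 70.0 to 90.1%) at genes with PolII and in 234 of 418 pairs (56.0%, 51.1 to 60.8%) at genes without it. It was nearest the start in 12 pairs at genes with PolII and in 184 pairs at genes without it. PolII peaks themselves were nearest the start in 60 of 74 pairs at genes with a short H3K9me3 peak (81.1%) and in 5716 of 7083 pairs over all genes (80.7%).

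**Figure D1:**
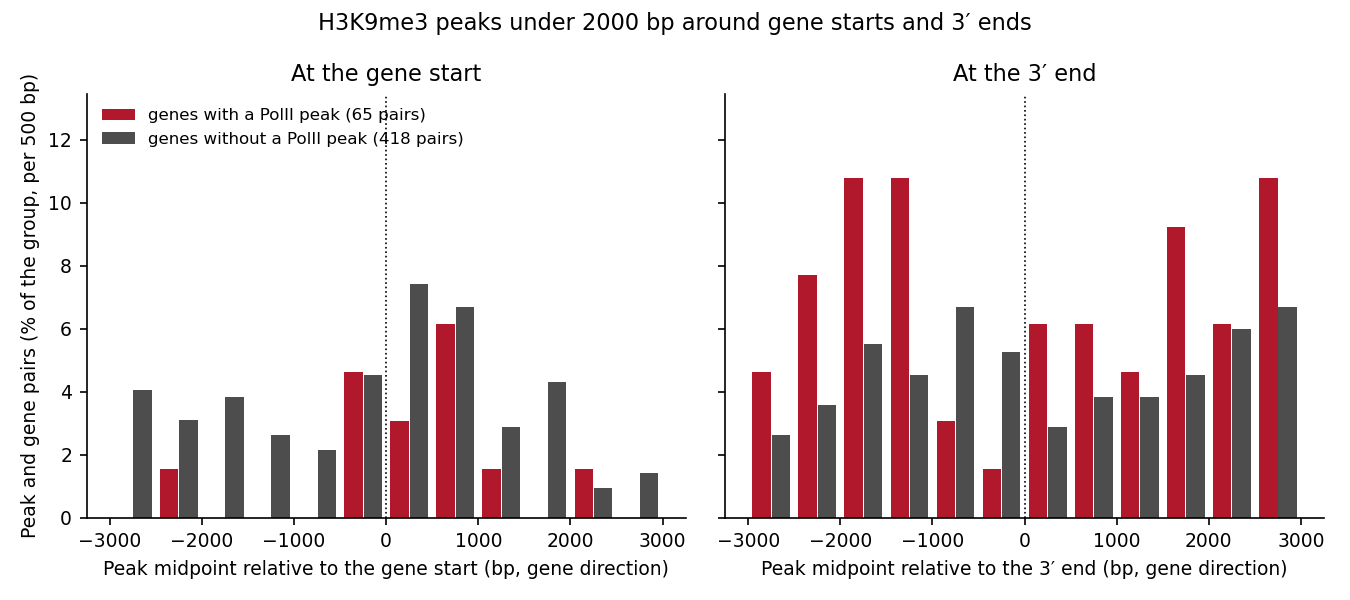
Position of short H3K9me3 peaks around the gene start (left) and the 3′ end (right), in bp along the direction of the gene, for genes with PolII (red, 65 pairs) and genes without it (grey, 418 pairs), as the percentage of each group's pairs per 500 bp. Each pair is drawn once, at its nearest boundary. Red bars are concentrated at the 3′ end (53 of 65 pairs), while grey bars stand at both boundaries (234 of 418 at the 3′ end).

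The tilt towards the 3′ end was not limited to genes with zinc finger symbols. The zinc finger list goes by symbol, so zinc finger genes under other names would count among other genes. Pairs of Jmjd4, Snx17 and Ppm1g also counted there, though their peaks lay inside Zfp867 or Zfp513. The part of such pairs in the contrast was not tested. Among pairs of other genes the 3′ end held 40 of 51 with PolII (78.4%, 64.7 to 88.7%) and 198 of 371 without (53.4%, 48.1 to 58.5%). Among zinc finger genes the 3′ end held 13 of 14 pairs with PolII and 36 of 47 without PolII (76.6%, 62.0 to 87.7%), so here the interval for genes with PolII (66.1 to 99.8%) covers the share without it. Genes over 6000 bp gave 44 of 53 pairs with PolII (83.0%) and 150 of 263 without (57.0%). The genes differed in length, with medians of 18748 bp with PolII and 10055 bp without, and the part of length in the contrast was not tested. Leaving out the H3K9me3 peaks that overlap PolII gave 44 of 49 pairs (89.8%) at genes with PolII. Without clone-named genes the shares were 78.8% (65.3 to 88.9%) with PolII and 60.3% (54.1 to 66.3%) without, and within 1000 bp of a boundary they were 66.7% (10 of 15 pairs, 38.4 to 88.2%) and 46.5% (38.8 to 54.3%). In the last pair of shares and in the one before it the intervals overlap.

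For each gene the H3K9me3 and PolII peaks with the shortest distance between their centres were taken. Where a gene has several peaks, this choice can favour pairs at the same boundary. The pair of marks faced opposite boundaries in 45 of the 72 genes (62.5%) and the same boundary in 27. With strand, 38 of 61 genes had H3K9me3 at the 3′ end and PolII at the start, 12 had both at the 3′ end, 10 had both at the start, and only Pfdn2 had H3K9me3 at the start and PolII at the 3′ end. The centres of the marks were 10 to 175709 bp apart, with a median of 11063 bp, and the distance was over 5000 bp in 43 genes, 1000 to 5000 bp in 11 and under 1000 bp in 18. The PolII peak had another gene as its nearest in 16 of the 72 genes and the H3K9me3 peak in 10, so part of these pairings belong to neighbouring genes. Both peaks had the named gene as their nearest in 51.

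**Figure D2:**
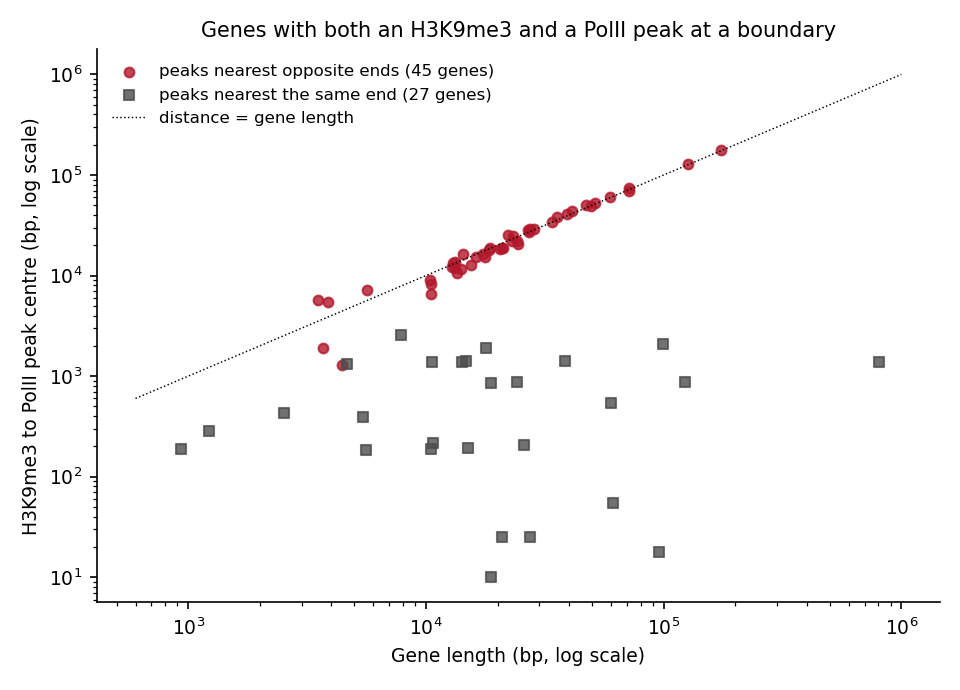
Distance between the centres of the H3K9me3 and PolII peaks (bp, log scale) against gene length (bp, log scale) in the 72 genes with both, as red circles where the peaks face opposite boundaries (45 genes) and grey squares where they face the same one (27 genes). For each gene the pair of peaks with the shortest distance between centres is drawn. Red circles follow the dotted line of equal distance and length, which the windows of 3000 bp fix for long genes, and grey squares lie below 3000 bp.

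Examples show the arrangement at genes with broad functions in the cell. Several were picked after their values were seen, namely Wdr12, Ets2, Git2, Spice1, Ring1, Lrif1 and Samd9l. At Wdr12, a ribosome assembly factor gene of 27140 bp, the 853 bp H3K9me3 peak (chr1:60070311-60071163) lay 624 bp beyond the 3′ end, and the PolII peak was centred 464 bp from the start, nearer to its neighbour Carf. At Ets2, which encodes an ETS transcription factor, a 556 bp peak lay 387 bp past the 3′ end and PolII 77 bp from the start, with the centres 18952 bp apart. At Jmjd4, which encodes a hydroxylase of the translation termination factor, a 1296 bp peak lay 912 bp past the 3′ end, and the PolII peak at its start was nearer to Snap47. The same H3K9me3 peak also lay inside the zinc finger gene Zfp867, 2686 bp before the 3′ end of that gene. Wdr12, Ets2 and Jmjd4 therefore had the mark downstream of their body, at Jmjd4 within another gene.

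The peaks of Git2 (371 bp, 2766 bp from the 3′ end) and Spice1 (398 bp, 2566 bp) were narrower and farther out, and that of Git2 was nearer to Tchp. Git2 encodes a GTPase-activating protein for ARF and Spice1 a centriole protein. Ring1, a Polycomb ubiquitin ligase gene, had a 625 bp peak 1498 bp past its 3′ end, and Lrif1, whose product binds HP1, had a 585 bp peak 948 bp past its 3′ end. Samd9l, an interferon-inducible antiviral gene, had a 615 bp peak 2127 bp past its 3′ end.

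Of the 15 zinc finger genes with both marks, Zfp33b (1779 bp), Zfp949 (1772 bp), Zfp709 (1683 bp), Zfp426 (1630 bp) and Zfp959 (1382 bp) had the widest H3K9me3 peaks. All 5 peaks lay inside the gene, 1224 to 2485 bp before the 3′ end. At Zfp33b, Zfp949, Zfp709 and Zfp426 PolII lay at the start. Zfp959 had 2 PolII peaks, of which the one closest to the H3K9me3 peak was also nearest the 3′ end. At the 3′ end of zinc finger genes the midpoint was inside the gene in 10 of 13 pairs with PolII (76.9%) and in 26 of 36 without it (72.2%, 54.8 to 85.8%). At other genes it was inside in 15 of 40 with PolII (37.5%, 22.7 to 54.2%) and in 92 of 198 without (46.5%, 39.4 to 53.7%). Genes with zinc finger symbols thus carried the mark mostly within their last stretch, with or without PolII. At other genes it stood on either side of the 3′ end. The other genes may include zinc finger genes under other names, since the list goes by symbol.

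Of the 10 genes with both marks at the start, the marks overlapped in 7, among them Tmem267, Zfp180, Brox and Aida, and lay side by side in 3. At Sp100, a nuclear body gene, the 426 bp H3K9me3 peak was 798 bp inside the start and PolII 259 bp from it, without overlap. Fcgr3, which encodes an Fc receptor of myeloid and NK cells, had a 717 bp H3K9me3 peak 250 bp inside its start and a PolII peak 1659 bp inside. That start is the outermost coordinate of Fcgr3, and the H3K9me3 peak was 6262 bp from the nearest annotated promoter start of the gene. Hjurp, which encodes the chaperone of the centromeric histone CENP-A and was picked after its values were seen, had a 501 bp peak 612 bp inside its start and PolII 238 bp from it.

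H3K9me3 peaks at genes with PolII also stood more alone. Of the 67 peaks at genes with PolII, 22 (32.8%) had no other H3K9me3 peak within 100 kb, against 41 of 509 (8.06%) at genes without PolII. A total of 4 peaks near genes of both kinds counted on both sides. The median number of other H3K9me3 peaks within 100 kb was 2 at genes with PolII and 5 at genes without it, and the median distance to the next was 33203 bp at genes with PolII and 11728 bp at genes without it. The fixed 1-Mb window in which a peak fell held a median of 4 H3K9me3 peaks at genes with PolII and 19 at genes without it. This count includes the peak itself. Widths overlapped widely, with medians of 717 bp (quartiles 487 and 1312 bp) at genes with PolII and 630 bp (422 and 1072 bp) at genes without it.

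**Figure D3:**
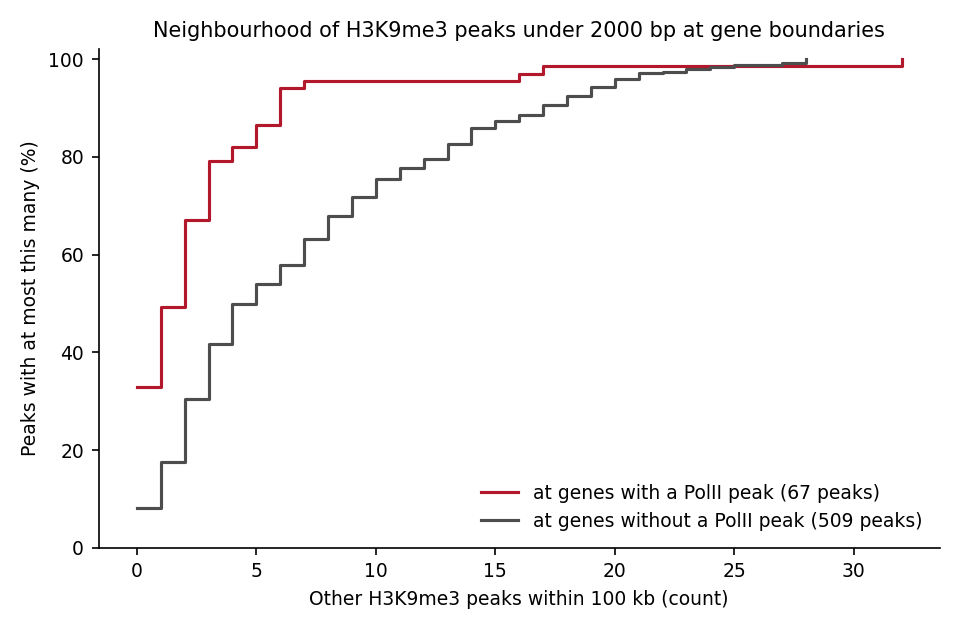
Cumulative percentage of short H3K9me3 peaks at gene boundaries (y axis) that have at most the given number of other H3K9me3 peaks within 100 kb (x axis), for peaks at genes with PolII (red, 67 peaks) and genes without it (grey, 509 peaks). The red curve begins at 32.8% with no neighbour and the grey curve at 8.06%.

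The most isolated peak at a gene with PolII was the 1329 bp peak 57 bp outside Eif4g2, a translation initiation factor gene, whose next H3K9me3 peak was 2261627 bp away. Spice1 (1625770 bp), Ets2 (1239235 bp) and Git2 (1064384 bp) followed among the genes named so far, and at Zfp189, a zinc finger gene, the next peak was 641413 bp away. Of peaks with no H3K9me3 within 100 kb, the 3′ end took 17 of 21 pairs at genes with PolII (81.0%, 58.1 to 94.6%) and 26 of 34 at genes without it (76.5%, 58.8 to 89.3%). Among these isolated peaks the shares at genes with and without PolII were therefore within counting error of each other, while over all pairs they were 81.5% at genes with PolII and 56.0% at genes without it. At genes with PolII some of the isolated pairs shared a peak, such as those of Snx17, Zfp513 and Ppm1g, and are not separate observations. The part of isolation in the contrast at the 3′ end was not tested.

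Direct overlap with PolII was rare. At least 1 bp was shared with a PolII peak by 15 of the 572 members (2.62%, 1.47 to 4.29%), against 87 of the whole list of 16161 peaks (0.538%). The share was 7 of 78 among peaks of 2000 bp or wider at gene boundaries (8.97%, 3.68 to 17.6%), 21 of 2628 inside genes (0.799%) and 44 of 12883 away from genes (0.342%). Closeness to PolII went the same way, with a PolII peak within 100 kb of 24.1% of members, 42.3% of the wide boundary peaks, 11.3% of peaks inside genes and 5.82% of those away from genes. The classes were set by distance to gene boundaries, where many PolII peaks lie. The part of this choice in the differences was not tested. For DDX55 the members shared 12 peaks (2.10%, 1.09 to 3.64%), against 0.761% of the whole list. R-loop overlap did not follow, with 5 members (0.874%, 0.284 to 2.03%), against 1.62% of the whole list.

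**Figure D4:**
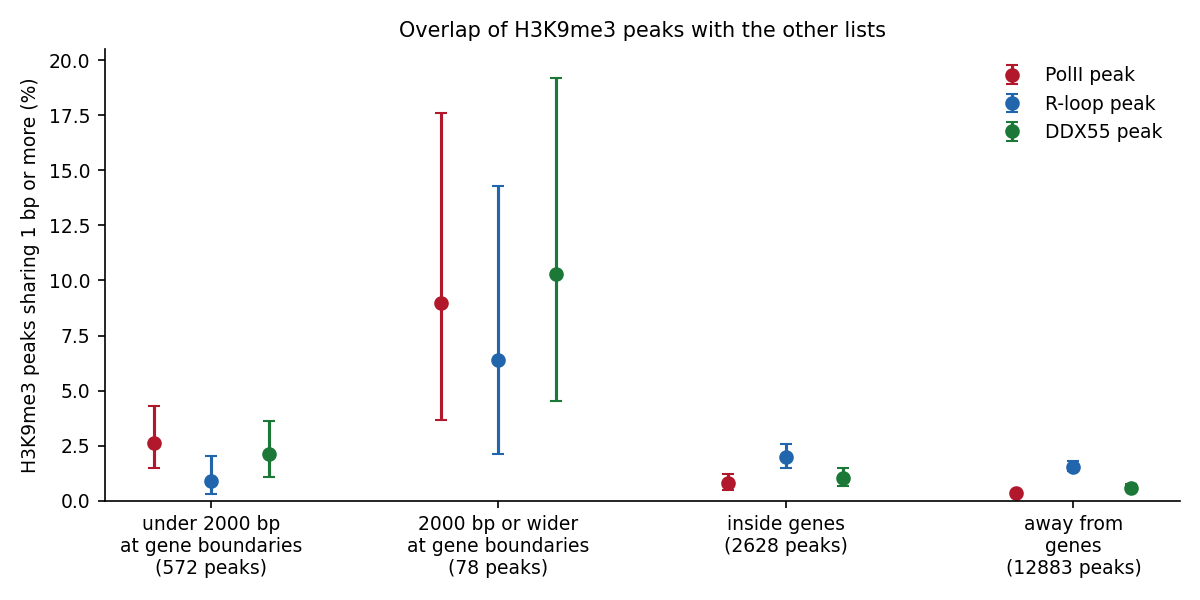
Percentage of H3K9me3 peaks that share at least 1 bp with a PolII (red), R-loop (blue) or DDX55 (green) peak, in 4 classes of H3K9me3 peak, with exact 95% intervals as bars. Short boundary peaks (left) had more PolII overlap (2.62%) than peaks inside genes (0.799%) or away from genes (0.342%), and wide boundary peaks the most (8.97%). The classes are set by distance to gene boundaries, where many PolII peaks lie.

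The 15 members that overlapped PolII lay at 18 genes. Zfp180, a zinc finger gene, had its whole 341 bp H3K9me3 peak (chr7:24081903-24082243) inside a PolII peak, 196 bp inside the gene start. At Eif4g2 the PolII peak shared 501 bp with the 1329 bp H3K9me3 peak. Slfn2, a gene of T cell quiescence, shared 411 bp of its 1407 bp peak, which lay 2755 bp past the 3′ end and not at the promoter. At H2-Q7, a nonclassical MHC class I gene, 111 of 1851 bp were shared, at Tmem267 67 of 1540 bp, and at Crlf2, which encodes a TSLP receptor chain, only 9 of 932 bp. Touching marks thus ranged between a shared edge and full cover.

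The Asmt gene of melatonin synthesis on chromosome X had 2 members, of which 1 was fully under PolII (637 bp). A stretch of chromosome 9 (chr9:124422938-124476436) held 3 more, at Gm20783 with LOC108167694 (1832 of 1850 bp), at LOC108167320 (760 of 1429 bp) and at Ppp2r3d, which encodes a phosphatase regulatory subunit (485 of 485 bp). The genes of that stretch are clone-named or little annotated, and how reads from repeated copies were placed is not given in the sources used here. Their overlap is reported as uncertain.

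In 4 places an H3K9me3 peak met both a PolII and a DDX55 peak. The peak of 597 bp inside Eppk1, which encodes the cytolinker epiplakin, was fully under both. At Apool, a gene of the mitochondrial MICOS complex, 306 of 522 bp were under PolII and 519 bp under DDX55. At Lars2, the mitochondrial leucyl-tRNA synthetase gene, 429 of 466 bp were under PolII and 438 bp under DDX55, 651 bp before the 3′ end. The peak near the overlapping starts of Brox and Aida, inside Aida and 2066 bp outside Brox, shared 409 of its 460 bp with PolII and 441 bp with DDX55. These H3K9me3 peaks were all narrow (460 to 597 bp). Their centres lay 10 to 55 bp from those of the PolII peaks. At Lars2 and at Brox and Aida the H3K9me3 and PolII peaks began at the same base. The IgG profile was not analysed here, so these overlaps are also reported as uncertain.

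DDX55 alone met 8 members, among them those of Sfi1 (516 of 1935 bp), Sytl2, a synaptotagmin-like vesicle gene (499 of 1184 bp), and Speer4e of a testis multicopy family (242 of 1018 bp). The members at Gm9758, Speer4e, Gm21149 and Gm21083 lay close together on chromosome 5 (chr5:14914426-15582768). How reads from repeated copies were placed is unknown for this stretch too, so these overlaps are also uncertain. The R-loop list met 5 members. It covered the whole 693 bp peak 141 bp outside Impact, an imprinted gene that encodes a regulator of translation, and 279 of 335 bp at Tmem245, 361 of 508 bp at Vmn2r46 and 127 of 522 bp at Zfp747. No member met all 3 other lists. DDX55 overlap was found in 5 of 67 peaks at genes with PolII (7.46%, 2.47 to 16.6%) and in 7 of 509 at genes without it (1.38%, 0.555 to 2.81%). Of these 12 peaks, 4 also overlapped a PolII peak, all at genes with PolII. Such a PolII peak can itself place the gene in that group, as at Eppk1 and Apool. The DDX55 shares are therefore partly set by how the groups were formed. R-loop overlap was found in 3 of 67 at genes with PolII (4.48%, 0.933 to 12.5%) and in 2 of 509 at genes without it (0.393%, 0.0476 to 1.41%), and for both targets the intervals overlap.

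Of the 527 genes, 210 (39.8%) belonged to a gene list and 317 to none. Among the lists, zinc finger genes were the most numerous, with 61 of 430 (14.2%, 11.0 to 17.8%), against 2.44% of all protein-coding genes. Their 73 peaks had a median width of 1045 bp, against 634 bp over all members. PolII lay at 15 of the 61 (24.6%), against 177 of all 430 zinc finger genes (41.2%). Zfp984 on chromosome 4 had 4 members, the most of any gene, 969 to 1347 bp wide and placed in pairs at its start and its 3′ end. Zfp600 and Zfp640 had 3 each. Zfp37 (1777 bp), Rex2 (1763 and 1161 bp), Zfp119b (1740 bp) and Zfp160 (1114 and 1132 bp) were further zinc finger genes with wide members and no PolII, while the peaks of Zfp273 (305 bp), Zfp189 (348 bp) and Zfp345 (379 bp) were narrow.

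**Figure D5:**
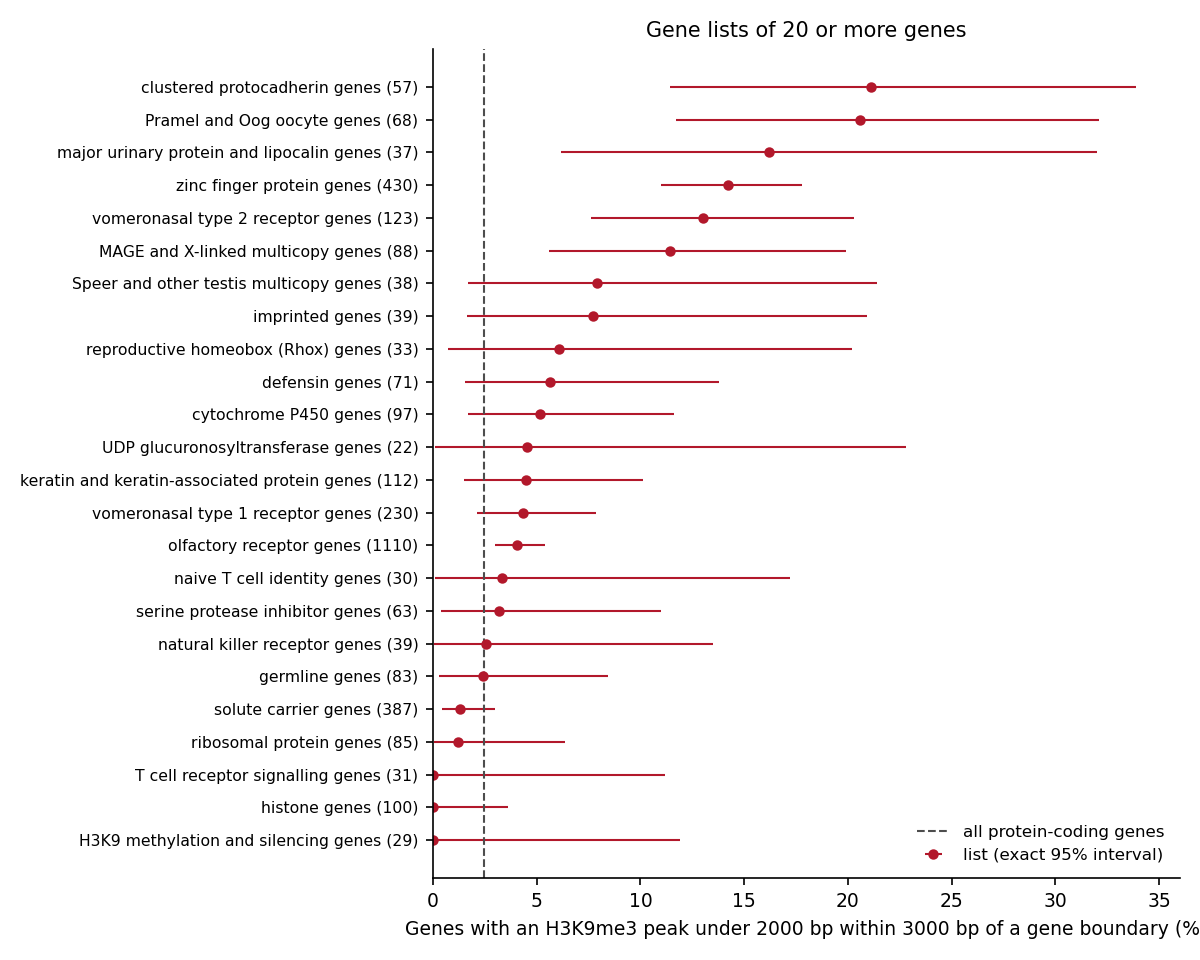
Percentage of genes with a short H3K9me3 peak at a boundary (x axis) in each gene list of 20 or more genes (list size in brackets), as points with exact 95% intervals, beside the 2.44% of all protein-coding genes (dashed line). Protocadherin, Pramel and zinc finger genes lie well right of the line, and histone and T cell receptor signalling genes at 0.

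Receptor genes of smell and pheromone sensing followed. None of the 71 with an H3K9me3 peak had PolII, which lay at 0 of all 123 type 2 vomeronasal, 1 of all 230 type 1 vomeronasal and 1 of all 1110 olfactory receptor genes. Type 2 vomeronasal receptors had 16 of 123 (7.62 to 20.3%), type 1 receptors 10 of 230 (4.35%, 2.10 to 7.85%) and olfactory receptors 45 of 1110 (4.05%, 2.97 to 5.39%). Median peak widths were 470 bp for type 2 vomeronasal and 499 bp for olfactory receptor genes, below the 634 bp of all members, and 738 bp for type 1 receptor genes, above it. Vmn1r149 had a 1413 bp peak 330 bp before its start, and Vmn2r29 a 931 bp peak over the promoter shown above.

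Families of the germ line and of multicopy loci were also marked. Clustered protocadherin genes, which encode neuronal adhesion molecules, had 12 of 57 (21.1%, 11.4 to 33.9%), including Pcdha1 and Pcdhb10. These 12 genes were served by 11 peaks, so the genes are not separate observations. The Pramel and Oog list of oocyte genes had 14 of 68 (20.6%, 11.7 to 32.1%), among them Nlrp5, Obox2, Obox3 and Pramel20. The MAGE and X-linked multicopy list had 10 of 88 (11.4%), such as Btbd35f1, Cypt12 and Spin2f, and the major urinary protein list 6 of 37 (16.2%), such as Mup1 and Mup22. No gene of these 4 lists had both an H3K9me3 and a PolII peak, and PolII lay at 0 of all 57 protocadherin, 0 of 68 Pramel and Oog, 6 of 88 MAGE and X-linked and 0 of 37 major urinary protein genes.

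The other lists had 5 members or fewer, and their intervals include 2.44%. Imprinted genes had 3 of 39, namely Impact, Ndn (511 bp peak, 548 bp inside its start) and Magel2 (1140 bp, 2032 bp inside its start), Ndn and Magel2 being neighbours of the Prader-Willi region. Speer and other testis genes had 3 of 38, defensins 4 of 71, Rhox homeobox genes 2 of 33, cytochrome P450 genes 5 of 97, keratin and keratin-associated genes 5 of 112, serine protease inhibitors 2 of 63 and UDP glucuronosyltransferases 1 of 22 (Ugt2b36). Schlafen genes had 1 of 8 (Slfn2) and the Sp100 and p200 list 2 of 16 (Sp100 and Sp110). The list of germline genes, which are silenced by DNA methylation in somatic cells, had 2 of 83, Pdha2 and Rpl10l, both with the peak at the start.

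Lists of T cell and housekeeping genes had few or no members, and the interval of each includes the 2.44% of all protein-coding genes. No short H3K9me3 peak lay at 31 T cell receptor signalling genes (upper limit 11.2%), of which 28 had PolII, nor at 100 histone genes (upper limit 3.62%), of which 70 had PolII, nor at 29 genes of H3K9 methylation and silencing (upper limit 11.9%), of which 18 had PolII. Naive T cell identity genes had 1 of 30 (Slfn2, 3.33%, 0.0844 to 17.2%), ribosomal protein genes 1 of 85 (Rpl10l) and solute carrier genes 5 of 387 (1.29%, 0.421 to 2.99%). Of genes that mark other lineages, B cell and erythroid genes had 0 of 10 each, myeloid genes 1 of 12 (Fcgr3), and the CD8 T and NK list 1 of 10, which is Klrb1c (NK1.1), also the single one of 39 natural killer receptor genes, with a 1510 bp peak 248 bp past its 3′ end. Genes in none of the lists numbered 53 of the 72 with PolII and 264 of the 455 without it. Clone-named genes made up 12 of the 72 genes with PolII (16.7%) and 148 of the 455 without it (32.5%), against 7.02% of all protein-coding genes.

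Members were unevenly spread over the genome. Chromosome 7 had the highest share of its H3K9me3 peaks at gene boundaries, 82 of 1209 (6.78%), followed by chromosome 17 with 33 of 559 (5.90%), and chromosome 15 the lowest, 2 of 472 (0.424%). The members fell in 273 windows of 1 Mb, of which 166 held a single member, while the 10 fullest held 101 members (17.7%). The window chr4:147000001-148000000 held 12 members at Rex2 and zinc finger genes such as Zfp978 and Zfp984, among 95 H3K9me3 peaks in all. The window chr18:37000001-38000000 held 10 at protocadherin genes among 17, and chr3:92000001-93000000 held 9 at the epidermal genes Ivl, Kprp, Lce1h, Lce1j and the Sprr2 group among 18. In chr1:85000001-86000000, 10 members lay at Sp100, Sp110 and clone-named genes, among 87. Genes with 2 or more members were 5 of 72 with PolII (6.94%) and 56 of 455 without it (12.3%).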

How the data were processed

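CD4+ naive T cells were profiled by CUT&Tag, and the values used are the 4 merged peak lists that the authors deposited. Their unit is none of the usual ones: each deposited peak is a pair of coordinates in bp, without score, signal or count. Per the submitters' processing notes the build was mm10, and the tools named are MACS3 3.0.0b1, ChIPseeker 1.30.3, Bowtie2 2.5.0, fastp 0.12.4 and SAMtools 1.15.1. Thresholds, merging, controls and the handling of reads with several placements are not given in the sources used here.

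Of the 16738 peaks in the H3K9me3 list, 16161 on chromosomes 1 to 19 and X were used. Genes and sequences came from RefSeq tables of GRCm38.p6, whose coordinates equal those of mm10. The strand was taken from the promoter table and was known for 17274 of 21631 protein-coding genes. Each pair of a peak and a gene was assigned to the nearer boundary. Overlaps (1 bp or more) were counted in Python 3.11.15 with pandas 2.3.3 and numpy 2.4.6, tested on planted intervals and checked with bedtools 2.31.1. Intervals came from scipy 1.17.1 and figures from matplotlib 3.10.9. No p-value was computed, because the lists hold no value per sample.

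The members, the 30 gene lists and the rules were chosen with earlier results of these data known. Named were the 10 widest members and the 10 nearest a boundary (clone names excluded), the 15 widest at genes with PolII, those overlapping another list, up to 6 per gene list in alphabetical order (12 for zinc finger genes), and peaks next to each limit. Genes beyond these were chosen after their values were seen. Alternatives were other windows, widths, overlap rules and gene sets.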

Additional observations from a re-analysis of the deposited data

How the results depend on the processing

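No paired analysis was possible because each list merges its samples, and for the same reason no replicate could be left out. Of 79 alternative values, 64 stayed within the main interval (shares), within 1.5 times (counts) or within 1 SD over members (distance), and 15 did not. A window of 1000 bp left 216 peaks at 206 genes with a median distance of 468 bp, PolII at 7.77% of these genes (28.4% of all genes), 3.95% of zinc finger genes, and 3′ end shares of 66.7% with PolII and 46.5% without it. A window of 2000 bp gave 10.5% of zinc finger genes and a width limit of 1000 bp gave 7.21%. The wider 50% of peaks left 311 members at 295 genes and 10.7% of zinc finger genes. Without places shared with PolII, 10.8% of genes had PolII and, by construction, 0 members overlapped it. With the PolII window alone at 1000 bp, 10.1% of genes had PolII. Under each of these settings the share of genes with PolII was below that of all genes. Under each but the last, for which it was not computed, the 3′ end share was higher at genes with PolII than at genes without it. The shares at the 3′ end and the settings without zinc finger genes or with long genes only were added after seeing the data. Peak width stands in for strength, depth is unknown, and whether a peak comes from DDX55 KO samples, WT samples or both cannot be told apart.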
